A study of Caenorhabditis elegans with 2 samples.

Results

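The mismatch repair and translesion polymerase genes of the nematode Caenorhabditis elegans are described here for binding of DPL-1 near their starts. The set holds 9 of the 19973 protein-coding genes on the 6 nuclear chromosomes: msh-2, msh-6, mlh-1, pms-2, exo-1, polh-1, polk-1, rev-1 and ung-1. They were listed by name for their known roles, and all 9 were found in the annotation of the WBcel235 assembly, which is ce11. For each, a summit (the highest point of a peak) was counted when it fell in a window that opens 1000 bp upstream of a transcript start and closes 200 bp past it, for any of the annotated starts. The measurements are peaks of chromatin immunoprecipitation with sequencing (ChIP-seq) in whole L4 larvae of pooled sexes, with 1 group of 2 biological replicates. The animals were strain OP105, in which an integrated array, wgIs105, carries dpl-1 joined to TY1, EGFP and FLAG tags together with unc119 in an unc119(ed3) background. The antibody entry of the labels reads dpl-1 and their description gives eGFP-dpl-1. The sources used here do not say which sequences drive the transgene, and no second strain, stage or treatment was compared. Whole larvae were used, so a site bound in few cells and a site bound weakly in many cells cannot be told apart.

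DPL-1 is the DP protein of the worm. It pairs with E2F factors to contact DNA, and it is part of the DRM complex that represses cell cycle genes. Mismatch repair removes bases that the replicative polymerases paired wrongly. MSH-2 and MSH-6 recognise the mispair, MLH-1 and PMS-2 join them and license a cut in the new strand, and the exonuclease EXO-1 removes that strand. Translesion polymerases copy past damaged bases at which the replicative enzymes stall: POLH-1 is the worm polymerase eta, POLK-1 is polymerase kappa, and REV-1 inserts cytosines and, in yeast and mammals, also recruits other translesion polymerases. UNG-1 is a uracil-DNA glycosylase, which starts base excision repair by cutting uracil out of DNA.

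Of the 9 genes, 4 (44.4%) had a summit in the list that passed an irreproducible discovery rate threshold (the IDR list), namely polh-1, polk-1, exo-1 and ung-1. By the same rule 3266 of all 19973 protein-coding genes (16.4%) had one. None of the 4 genes of mismatch recognition and strand cutting (msh-2, msh-6, mlh-1 and pms-2) was among them, against 2 of the 3 translesion polymerase genes, the exonuclease gene and the glycosylase gene. The genes were proposed, and the division by role made, with results of these data known, so the counts are descriptions and no test was run on them. In the relaxed list called on the pooled replicates, 8 of the 9 genes had a summit in the window, against 44.0% of all protein-coding genes. In both replicate relaxed lists 7 of the 9 had one, against 31.4% of all protein-coding genes. The summits need not lie at the same place: for 5 of the 8 genes with a pooled summit, polh-1, polk-1, rev-1, exo-1 and ung-1, both replicates had a summit within 100 bp of it. All of these but rev-1 have IDR peaks, a list chosen for agreement between replicates. Among all 3369 IDR peaks, 3076 (91.3%) had a summit within 100 bp in both replicates. The share over all pooled summits was not counted. The relaxed lists reach down to weak signal at many genes, so a listed summit says less there than in the IDR list.

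Sequences at or near the 4 IDR summits are shown because these are the peaks on which the results turn. Each is read from the WBcel235 genome on the strand of the gene, and capitals mark matches to the E2F site or to the CHR element, described with their counts further on. For polh-1 and ung-1 the run covers 100 bp on either side of the summit. For polk-1 it is the part of that window upstream of the annotated start. For exo-1 it is a site of 30 bases around a pair of neighbouring CHR matches downstream of the summit. The polk-1 and exo-1 runs do not hold the summit. The polk-1 CHR match at 49 bp and the third exo-1 match, at -87 bp, lie outside them.
polh-1, chrIII:1950315-1950515, minus strand: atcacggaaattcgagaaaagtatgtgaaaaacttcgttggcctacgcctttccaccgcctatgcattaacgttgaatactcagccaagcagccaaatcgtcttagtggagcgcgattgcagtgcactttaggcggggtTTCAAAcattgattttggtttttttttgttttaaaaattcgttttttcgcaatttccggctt
ung-1, chrIII:11974537-11974737, minus strand: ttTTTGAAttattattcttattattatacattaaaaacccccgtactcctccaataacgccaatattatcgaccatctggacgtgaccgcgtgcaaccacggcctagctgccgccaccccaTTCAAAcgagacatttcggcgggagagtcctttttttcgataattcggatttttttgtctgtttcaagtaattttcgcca
polk-1, chrIII:8628591-8628671, minus strand: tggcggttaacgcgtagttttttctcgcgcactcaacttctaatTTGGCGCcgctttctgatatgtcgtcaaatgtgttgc
exo-1, chrIII:13423650-13423679, plus strand: cggcgccagTTTGAAcTTTGAAatttcgtt

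Among the translesion polymerase genes, polh-1 had the highest signal of all 9 genes. The gene (WBGene00018721) lies at III:1945058-1950269 on the minus strand, and its IDR peak at III:1950251-1950577 had a signal of 1212, rank 61 of 3369 IDR peaks. Signal is the authors' value for a peak, on a scale that the sources used here do not define, so it is compared within a list. The summit, at III:1950415, lay in intergenic sequence at -146 bp from the polh-1 start, where a minus sign means upstream. The peak had a signal of 488 in replicate 1 (rank 103) and 711 in replicate 2 (rank 44), which is 599 ± 157 (SD, n = 2). The summit fell on the same base in replicate 1 as in the pooled list and 3 bp away in replicate 2, so both replicates placed it alike. The gene rps-22, which encodes a protein of the small ribosomal subunit, starts head to head with polh-1 across a gap of 265 bp, and the same summit lay at -120 bp from its start. The summit is nearer to rps-22 than to polh-1, and counted for the nearest start only it belongs to rps-22.

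The gene polk-1 (WBGene00017696, III:8626258-8628590, minus strand) had a weaker IDR peak that sat on its start. The peak at III:8628492-8628681 had a signal of 179.1 and rank 956. Its summit lay 19 bp downstream of the nearest of 3 annotated starts, in an untranslated part of an exon. Its signal was 77.8 in replicate 1 (rank 1052) and 99.5 in replicate 2 (rank 934), 88.7 ± 15.3 (SD, n = 2), with summits 15 bp and 3 bp from the pooled one. This summit is shared too: gpr-1, whose product positions the mitotic spindle, starts head to head with polk-1 across 341 bp, and the summit lay at -361 bp from its start. Replicate 1 held a second, weak summit between the genes, with a signal of 10.9, at -165 bp from polk-1.

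The third polymerase gene, rev-1 (WBGene00014066, II:7900622-7904667, plus strand), had no IDR summit. Its pooled summit, at -278 bp, had a signal of 34.0 and rank 4604, below the lowest IDR signal of 46.4. The signal was 20.1 in replicate 1 (rank 4663) and 9.38 in replicate 2 (rank 10783), 14.7 ± 7.55 (SD, n = 2), and both replicate summits lay within 41 bp of the pooled one. The ratio of replicate 2 to replicate 1 was 0.468 at rev-1, against 1.46 at polh-1, 1.28 at polk-1, 0.946 at ung-1 and 0.816 at exo-1. Over the 3076 IDR peaks with a summit within 100 bp in both replicates the median ratio was 1.14, with quartiles of 0.835 and 1.54. Of the genes with an IDR peak, exo-1 lay just below the lower quartile, and polh-1, polk-1 and ung-1 lay between the quartiles. The rev-1 ratio was below the lower quartile, but its summit is weaker than every IDR peak, so these peaks are not a like set for it. The rev-1 summit fell in an untranslated exon part of ptc-1, a gene of the patched family that ends 106 bp before rev-1 on the same strand, and it also lay at -322 bp from the piRNA gene 21ur-15116.

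**Figure D1:**
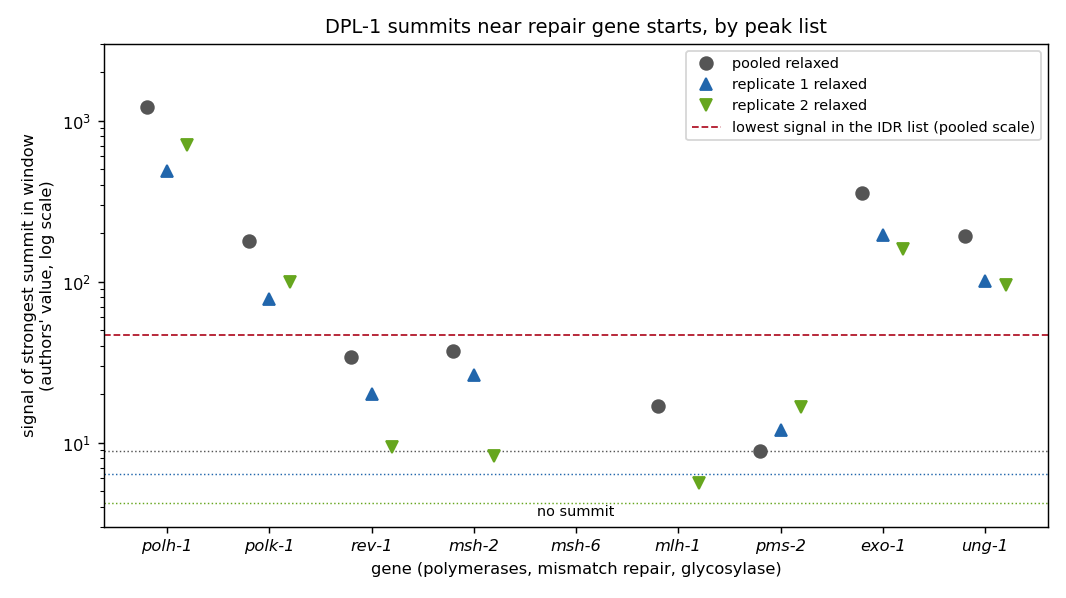
Signal of the strongest summit in the window of each gene (authors' value, log scale) in the pooled, replicate 1 and replicate 2 relaxed lists. Dotted lines mark the lowest signal of each relaxed list and the dashed line marks the lowest IDR signal, 46.4 on the pooled scale. The pooled points of polh-1, polk-1, exo-1 and ung-1 lie above the dashed line, those of rev-1, msh-2, mlh-1 and pms-2 lie below it, and msh-6 has no point.

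The exonuclease gene exo-1 (WBGene00009731, III:13423514-13426204, plus strand) was the only mismatch repair gene of the set with an IDR peak, and its summit belonged to no other gene. The peak at III:13423503-13423743 had a signal of 354.4 and rank 477. In replicate 1 the signal was 194.6 (rank 438) and in replicate 2 it was 158.9 (rank 552), 177 ± 25.3 (SD, n = 2), with summits 13 bp and 3 bp from the pooled one. The summit lay 107 bp downstream of the annotated start, inside the 227 bp leader of the transcript and 120 bp before its first coding base. Of the 3440 pairs of a protein-coding gene and an IDR summit in its window, 155 (4.51%) had the summit downstream of the start. The upstream neighbour myo-6 runs on the same strand and overlaps the first 21 bp of exo-1. Many worm transcripts are trans-spliced, so an annotated start need not be where transcription begins.

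The mismatch recognition genes msh-2 and msh-6 had no IDR summit. For msh-2 (WBGene00003418, I:3694296-3697551, minus strand) the pooled list held a summit of 37.3 at -509 bp, rank 4179. Its -log10 q of 3.95 was the highest value of that list, which every IDR peak also has, as do 1112 of the 26631 pooled peaks outside the IDR list. The replicates differed at this place. Replicate 1 had a summit of 26.4 at -472 bp (rank 3153), and replicate 2 had 1 of 8.31 at -670 bp (rank 12778), at -161 bp from the pooled summit. The rank in replicate 1 falls within as many peaks as the IDR list holds, and the rank in replicate 2 lies far outside it. The window is shared with hus-1, which encodes a subunit of the checkpoint clamp that signals DNA damage and starts head to head with msh-2 across 550 bp. The pooled summit lay at -42 bp from hus-1 and at -444 bp from the piRNA gene 21ur-13866.

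For msh-6 (WBGene00003422, I:3449326-3462174, plus strand) no list held a summit in the window. The nearest pooled summit lay at -2193 bp with a signal of 16.5, the nearest in replicate 1 was 1804 bp downstream with 8.36, and the nearest in replicate 2 was at -1449 bp with 10.9. The nearest IDR summit, 828 in signal, lay at -10351 bp. That summit was at -124 bp from the start of nefr-1, the gene immediately upstream on the same strand, which ends 150 bp before msh-6.

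The genes mlh-1 and pms-2, whose products act together after the mispair is found, had only weak summits, and the replicates did not place them alike. For mlh-1 (WBGene00003373, III:13509301-13514570, minus strand) the pooled summit had a signal of 17.0 at -376 bp, rank 11765. Its -log10 q was 0.87. Replicate 1 had no summit in the window and replicate 2 had 1 of 5.61 at -491 bp (rank 21702). The pooled summit lay in an untranslated exon part of pod-1, the next gene upstream on the same strand. For pms-2 (WBGene00004064, V:11566801-11570601, minus strand) the pooled signal was 8.83 at -169 bp, rank 29983 of 30000, next to the lowest signal in that list. The -log10 q of that summit was 0.1779, against a lowest value of 0.1778 in the list. Replicate 1 had 3 weak summits in the window, from 7.29 to 12.1, and replicate 2 had 1 of 16.5 at -29 bp from the inner of the 2 annotated starts. The -log10 q of the replicate 1 summits ran from 0.227 to 0.917. That replicate 2 summit, of rank 5292, lay 838 bp from the pooled one. Its peak, V:11569807-11570056, had the highest -log10 q of the replicate 2 list, 4.05. It overlapped the peak of the strongest replicate 1 summit, V:11569942-11570311. The strongest pms-2 summits of replicate 1, at 12.1, and of replicate 2, at 16.5, also lay in the window of nhr-101, a nuclear hormone receptor gene.

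A same-strand gene ended within 500 bp upstream of ung-1 (Y56A3A.30) or overlapped the start of exo-1 (myo-6), both with IDR summits. A same-strand gene also ended within 500 bp upstream of 4 of the 5 genes without an IDR summit, namely msh-6, mlh-1, pms-2 and rev-1. Of those 4 upstream genes, 2 had an IDR summit in their own windows: nefr-1 before msh-6, with 828 (rank 146), and H12C20.7 before pms-2, with 141 (rank 1190) at -57 bp from its start and a gap of 88 bp to pms-2. The genes pod-1 and ptc-1, upstream of mlh-1 and rev-1, had none. Of all 3275 protein-coding genes with no IDR summit and a same-strand gene within 500 bp upstream, 869 (26.5%) had such a summit at the upstream gene. The share of all protein-coding genes with a same-strand gene this close was not counted. The counts given here were made after the values of the 9 genes were seen. Whether any of these neighbours share a transcript with the repair gene was not tested.

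**Figure D2:**
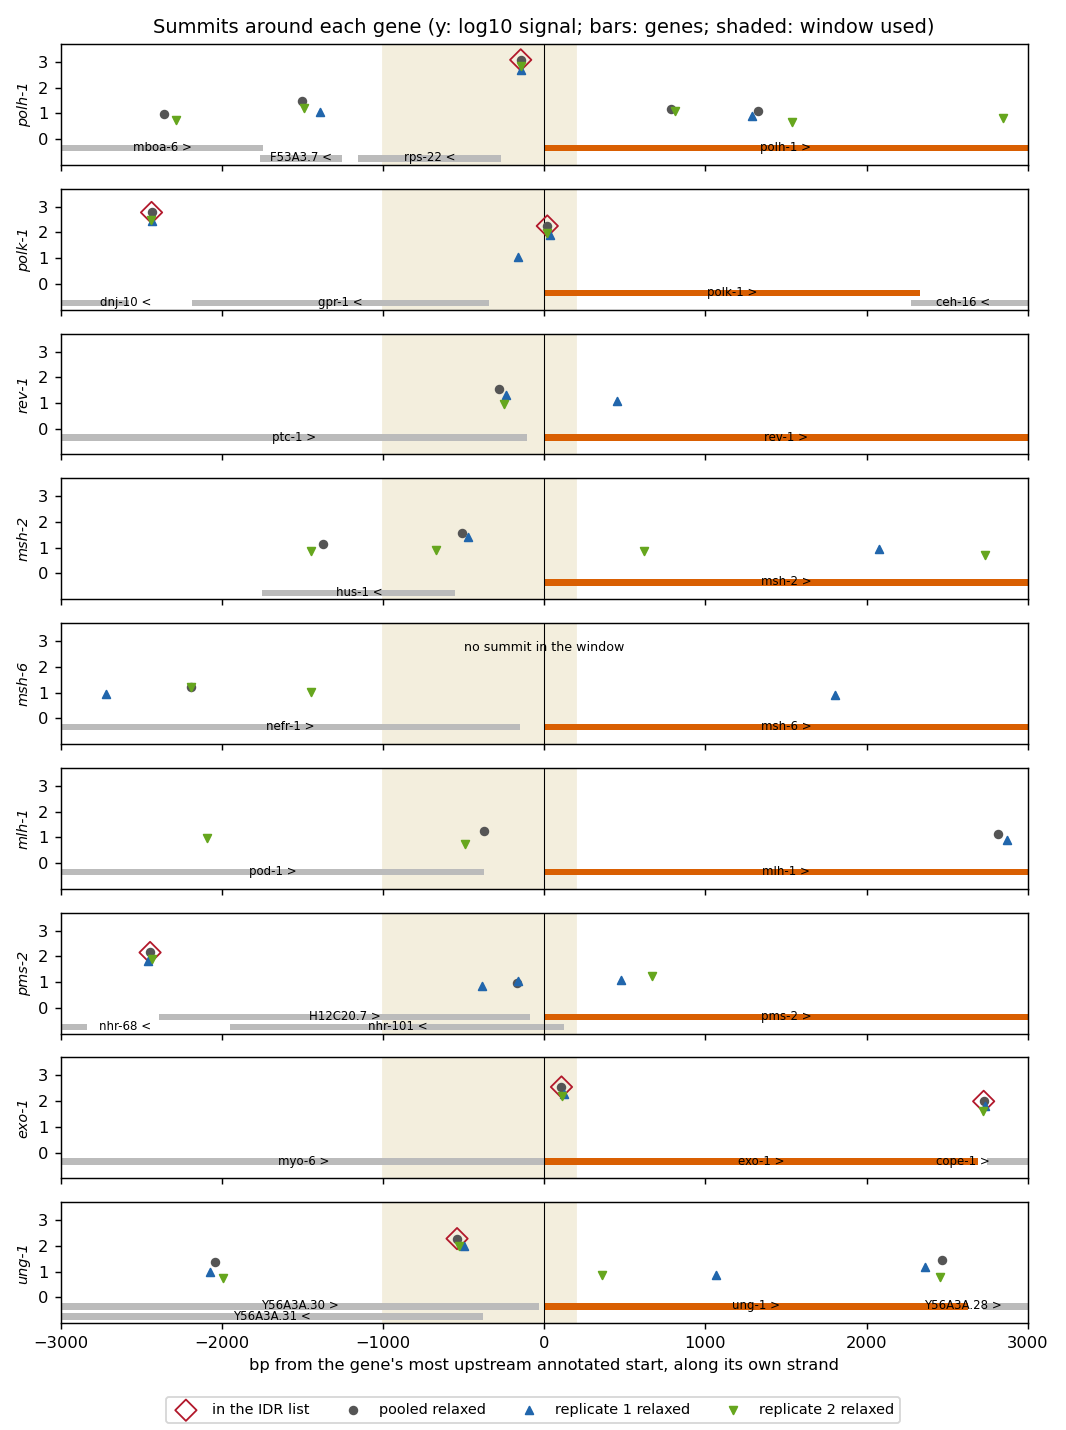
Summits around the 9 genes, as log10 of the authors' signal against distance in bp from the most upstream annotated start along the strand of the gene. Orange bars are the genes themselves, grey bars are neighbours (> same strand, < opposite strand), the shaded band is the window of that start (the inner starts of pms-2, polk-1 and ung-1 have windows of their own), and open diamonds mark IDR peaks. Diamonds in the band stand at polh-1, polk-1, exo-1 and ung-1, and the diamond left of the pms-2 band lies at the start of H12C20.7.

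The glycosylase gene ung-1 (WBGene00013241, III:11971467-11974096, minus strand) had an IDR peak farther from its start than the other 3. The peak at III:11974545-11974724 had a signal of 191.3 and rank 893, and its summit lay at -541 bp from the nearest of 3 annotated starts. The signal was 100.7 in replicate 1 (rank 827) and 95.3 in replicate 2 (rank 967), 98.0 ± 3.83 (SD, n = 2). The summits lay 44 bp and 13 bp from the pooled one. Of all pairs of a protein-coding gene and an IDR summit in its window, 19.4% had the summit more than 500 bp upstream, as ung-1 does, and the median distance was -225 bp. The summit lies in introns of Y56A3A.30, which runs toward ung-1 on the same strand and ends 31 bp before it, and of Y56A3A.31, which runs the other way. It was 160 bp downstream of the Y56A3A.31 start, nearer than to ung-1, so with the nearest start only it did not count for ung-1. At -541 bp it also fell outside a window opening 500 bp upstream.

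The count of 4 genes was read again under other choices, each beside the share of all protein-coding genes. It was 3 with the window opening 500 bp upstream (13.5%), 4 with the window opening 1500 bp upstream and closing 500 bp past the start (18.7%), and 4 when the peak interval and not the summit had to meet the window (17.1%). It was 4 with IDR peaks at or above the median IDR signal (10.6%), and 4 with RefSeq transcript starts (16.1%). Among the strongest 3369 peaks of a single replicate it was 4 without replicate 1 (16.1%) and 5 without replicate 2 (15.8%), where msh-2 joined. With each summit given to its nearest protein-coding start only, it was 2 (11.6%), exo-1 and polk-1. At 500 bp the gene lost was ung-1, and exo-1 and polk-1 were called under every one of these choices.

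By signal, polh-1 stood in the upper tail of all bound genes, exo-1 above their upper quartile, and ung-1 and polk-1 nearer the middle. The median IDR signal was 273 over the 4 bound genes, against 141 over all 3266 bound protein-coding genes (quartiles 79.9 and 296). Of those 3266 genes, 97.5% had a lower signal than polh-1, 79.3% a lower one than exo-1, 61.5% a lower one than ung-1 and 58.6% a lower one than polk-1. The order was polh-1, exo-1, ung-1 and polk-1 in the pooled list, in replicate 1 (488, 194.6, 100.7 and 77.8), and, for the first 2 genes, in replicate 2 (711 and 158.9). In replicate 2 polk-1, at 99.5, stood above ung-1, at 95.3, so this neighbouring pair is not ordered beyond the spread between replicates. Of the 4 bound genes, 3 (polh-1, polk-1 and ung-1) share their summit, each with 1 other protein-coding gene. Of all 3266 bound protein-coding genes, 1830 (56.0%) had a strongest summit that also counted for another such gene. The 3 IDR promoter peaks closest to polh-1 in log10 signal of both replicates had as their nearest genes W02H5.19, ints-4, a gene of the Integrator complex, and cyn-10, a cyclophilin gene, with IDR signals of 1236, 1225 and 1131. Their distances from polh-1 were 0.033, 0.037 and 0.045 on the log10 scale among 2284 peaks compared.

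**Figure D3:**
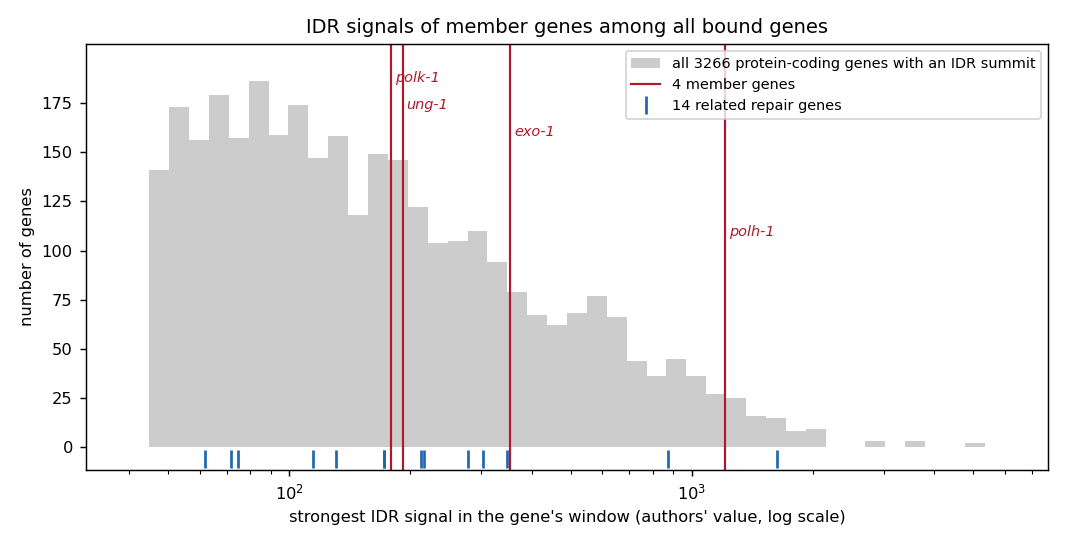
Histogram of the strongest IDR signal in the window (authors' value, log scale) over all 3266 bound protein-coding genes. Red lines mark the 4 bound genes of the set and blue ticks the 14 bound genes of the related repair lists. The line of polh-1, at 1212, is in the upper tail, and those of polk-1 and ung-1, at 179.1 and 191.3, lie close together near the middle.

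Short sequence elements known for the complex were looked for within 100 bp of the strongest pooled summit of each of the 8 genes that had one. The E2F site was searched as the consensus match TTCCCGC. The variants counted with it were TTCGCGC, then the variant that reads TTGCCGC, and last the variant that reads TTGGCGC. The CHR element, which the DRM subunit LIN-54 binds, was searched as TTCGAA and TTTGAA. Both strands were searched, and no motif of one kind contains one of another, though neighbouring matches may share end letters. The E2F site was found at polk-1, at -53 bp from the summit, and at msh-2, at -85 bp, and at none of the other 6. In windows of the same length, 201 bp, it was found at 19.9% of the 3369 IDR summits, at 8.87% of pooled summits outside the IDR list and in 6.29% of stretches that end on the start base of a protein-coding gene. Neither match lay within 50 bp of its summit, where 15.1% of IDR summits have one. These letters were not found at polh-1, the strongest peak of the set.

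The CHR element was found at 7 of the 8 genes, all but rev-1, against 48.8% of IDR summits, 51.7% of pooled summits outside that list and 56.2% of stretches upstream of starts. The exo-1 window held 3 matches, 2 of them 40 and 47 bp downstream of the summit and separated by a single base in the site printed above. At polh-1 the match lay 41 bp downstream of the summit, at polk-1 49 bp and at ung-1 23 bp downstream, with a second ung-1 match at -96 bp. The repeat GAGAG, searched on both strands and added after seeing the data, was found at ung-1, rev-1 and mlh-1. It was found at 54.1% of IDR summits, 31.8% of pooled summits outside that list and 29.6% of stretches upstream of starts. The G and C content of the windows was 41.3% at polh-1, 43.8% at polk-1, 41.8% at ung-1 and 33.3% at exo-1, against a median of 41.3% at all IDR summits. At the weaker summits it ran from 26.9% at pms-2 to 38.8% at mlh-1.

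**Figure D4:**
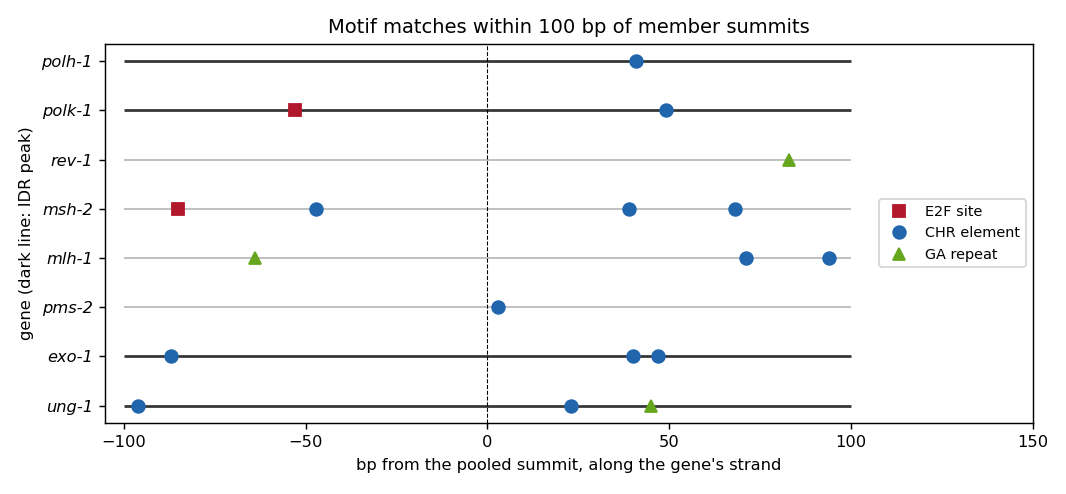
Positions of matches to the E2F site, the CHR element and the GA repeat, in bp from the pooled summit along the strand of each gene, for the 8 genes with a pooled summit in the window. Dark lines are the 4 genes with an IDR peak. The E2F site appears at polk-1 (-53 bp) and msh-2 (-85 bp), and rev-1 has no CHR match.

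Related repair genes were read from 5 lists. Of 29 genes matched, 14 (48.3%) had an IDR summit, with a median signal of 191.7, against 16.4% of all protein-coding genes. Among genes that load, modify or ligate at the sliding clamp, 6 of 9 had one, led by pcn-1, the clamp PCNA itself (1632), rfc-4 (875) and rfc-1 (302), of the clamp loader. The rfc-4 summit is shared with the elongation factor gene eef-1A.1 and the rfc-1 summit with pmp-3. Among nucleotide excision repair genes 5 of 10 had one, led by the damage-binding gene xpa-1 (278), rad-23 (171.6), which shares its summit with the proteasome gene rpn-12, and the transcription-coupled repair gene csb-1 (171.5), which shares its summit with F53H4.4. Among base excision repair genes beside ung-1, 2 of 6 had one: the flap nuclease gene crn-1 (347) and the AP endonuclease gene exo-3 (71.6), whose summit is shared with rbm-3.1. The worm's other MutS genes, him-14 and msh-5, which act in meiotic crossing over, had none, and the pooled list held a summit of 22.3 at msh-5 and none at him-14. Of the remaining repair polymerase genes, polq-1 had an IDR summit (211.9), 25 bp downstream of its start and shared with the kinetochore gene him-10, and rev-3, which encodes the catalytic subunit of polymerase zeta, had no summit even in the pooled list.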

How the data were processed

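DPL-1 ChIP-seq peak lists of 2 biological replicates of 1 group were used, in narrowPeak format on ce11, per the deposited file listings. Per those listings, each replicate's relaxed list came from its own alignment and a control alignment, the pooled list came from the alignments of both replicates, and the IDR list was derived from these. Neither aligner nor peak caller is given in the sources used here. The signal per peak, the -log10 q and the summit offset are the authors' deposited values. The IDR list holds 3369 peaks with signals from 46.4 to 5205, and each relaxed list holds 30000, with lowest signals of 6.37 in replicate 1, 4.19 in replicate 2 and 8.83 when pooled. No read counts were used, so depth is unknown and no interval for it is given. In the replicate lists, 84 summits coincided to the base, and 0 of these had equal signals.

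Summits (peak start plus offset, 1-based) were matched to transcript starts of Ensembl release 115 (WBcel235) with Python 3.11.15 and pandas 2.3.3. All peak ends lay inside the chromosomes. Sequences were read from the RefSeq copy of WBcel235. Genes named are the 9 members, every gene sharing their summits, up to 3 leading genes per related list with the unbound ones of short lists, and the 3 peaks most like polh-1. Upstream neighbours were named after their values were seen. The symbols msh-4, rev-7, pme-1 and pme-2 were not matched. The lists allowed for older symbols of a gene already listed, so an unmatched symbol need not be a missing gene. Members and lists were chosen with earlier results of these data known, and no significance test was run. Tested on simulated data, all 1601 planted summits inside the window were assigned to their gene. That checks the window code only, and not which gene a shared summit belongs to. Lists on ce10 and control reads were not used here. Alternatives were other windows, overlaps, thresholds, start sets, distances and single replicates.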

Additional observations from a re-analysis of the deposited data

How the results depend on the processing

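The count of 4 genes with an IDR summit stayed between 3 and 5 with a window from 500 bp or from 1500 bp upstream, interval overlap, IDR peaks at or above the median signal, RefSeq starts (added after seeing the data), and the strongest 3369 peaks of a single replicate (4 without replicate 1, and 5 without replicate 2, where msh-2 joins). It fell to 2 with the nearest protein-coding start only, because the summits of polh-1 and ung-1 lie nearer to rps-22 and Y56A3A.31. The count of related genes ranged from 11 to 14 of 29, against 10.6% to 18.7% of all protein-coding genes under the same choices. Taken from a single replicate, whose scale differs from that of the pooled list, the signal was 488.1 and 710.8 at polh-1, 158.9 and 194.6 at exo-1, 95.3 and 100.7 at ung-1, and 77.8 and 99.5 at polk-1. With 50 bp either side of the summit, 0 genes held the E2F site and 1 held GAGAG. Genes in the pooled list numbered 6 to 8 and genes in both replicates 6 or 7. The shares of all protein-coding genes for these were counted only with the main window and all listed peaks, 44.0% and 31.4%. Genes with a summit near the pooled one in both replicates numbered 5 or 6. With the nearest start only polh-1 and ung-1 had no value, and in the 500 bp window ung-1 had none. No paired analysis was possible because the labels give 1 group. Without read counts, how weak a site could be seen is not known beyond the lowest listed signals.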
